A study of Mus musculus with 24 samples.

Results

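The 76 genes described here encode the proteins of the cytosolic ribosome. They were chosen by symbol, as every Rpl or Rps gene with a number and at most a trailing a or x, together with Rplp0, Rplp1, Rplp2 and Rpsa, out of 55254 genes in the count tables. 46 of them belong to the large subunit and 30 to the small subunit. Nuclear RNA was measured in 24 libraries from the hippocampus of male C57BL/6N mice aged 6 months, in 8 groups of 3. The genotypes were wild type (WT), Ogg1-/-, Mutyh-/- and the double knockout (DKO), which lacks both DNA glycosylases of the oxidised-guanine repair pathway. Nuclei of several animals were pooled before the RNA was taken. The study's general statistics note speaks of biological replicates that are independent, but the labels and RNA methods do not say whether the libraries of a group came from separate pools, and p-values measure the spread between these libraries. Each genotype was sorted into NeuN+ nuclei, which are mostly neuronal, and NeuN- nuclei, which are non-neuronal. Genotypes are named as labelled.

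A ribosome holds 1 copy of nearly every one of these proteins, bound to ribosomal RNA, and cells therefore make their mRNAs in a coordinated way. Large-subunit proteins line the site of peptide bond formation, the exit tunnel and the stalk that recruits translation factors. Small-subunit proteins form the channel that mRNA passes through and the site where codons are read. The mRNAs are short and abundant in the cytoplasm, where many begin with a run of pyrimidines that ties their translation to growth signals. Nuclear RNA holds transcripts that are still being made or exported, together with any cytoplasmic RNA left on the nuclei.

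The pyrimidine start is shown first, because it is the sequence feature the family is known for. RefSeq start sites (GRCm38.p6) were on hand for 56 of the 76 genes, 34 of the large and 22 of the small subunit. In 13 of these 56 (23.2%), the first base was a C followed by at least 4 more pyrimidines, against 3.01% of 27025 genes with a start site in the same set. The windows below run from 15 bases before to 15 bases from the start. Capitals mark the pyrimidine run that begins with a C at the first base, where there is one. Pyrimidines before that base or in runs further in are left in lower case. Rps6, Rpl28 and Rplp2 are shown because they were lower in Ogg1-/- NeuN+ nuclei, Rpl15 and Rps15a because, among WT libraries, their levels were higher in the NeuN+ sort, and Rps18 because it is a common reference transcript.
Rps6, chr4:86857353-86857382, minus strand: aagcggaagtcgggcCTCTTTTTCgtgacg
Rpl28, chr7:4792950-4792979, plus strand: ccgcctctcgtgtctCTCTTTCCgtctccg
Rplp2, chr7:141447636-141447665, plus strand: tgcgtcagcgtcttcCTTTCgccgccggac
Rpl15, chr14:18270972-18271001, minus strand: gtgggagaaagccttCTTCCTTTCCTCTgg
Rps15a, chr7:118116133-118116162, minus strand: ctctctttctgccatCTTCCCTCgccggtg
Rps18, chr17:33955651-33955680, minus strand: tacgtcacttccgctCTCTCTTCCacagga
The other 43 had no such run at the exact RefSeq base. Rps26, Rplp0, Rpl11 and Rps3 are shown from this set, because the results below turn on them. RefSeq starts can lie some bases away from the start used in a tissue, so an absent run says only that these letters are not at this base.
Rps26, chr10:128626492-128626521, minus strand: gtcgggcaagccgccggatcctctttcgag
Rplp0, chr5:115559452-115559481, plus strand: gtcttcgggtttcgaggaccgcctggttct
Rpl11, chr4:136053379-136053408, minus strand: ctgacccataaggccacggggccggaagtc
Rps3, chr7:99483695-99483724, minus strand: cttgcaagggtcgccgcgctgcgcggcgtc
The letters CCGGAAG, the core bound by ETS factors, stood on either strand within 250 bases before to 50 bases after the start of 23 of 56 member genes (41.1%), against 9.93% of all genes. The letters AANATGGC, part of the YY1 motif, stood there in 11 of 56 (19.6%), against 6.96%.

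Library totals ran from 56563586 to 96192142 counts, and single members held between 111 counts (Rpl39) and 14794 counts (Rps3) in a library. The libraries labelled Mutyh-/- held more Mutyh RNA than WT (log2 fold change 3.15 ± 0.15 SE in NeuN+, adjusted p = 2.34e-08). Mutyh RNA was higher in the DKO libraries too. In both NeuN+ and NeuN-, libraries labelled Mutyh-/- or DKO did not overlap those labelled WT or Ogg1-/- in Mutyh RNA. The Mutyh count thus follows the label, although a higher count does not itself show loss of the gene. Ogg1 RNA in the libraries labelled Ogg1-/- was level with WT (0.05 ± 0.11 in NeuN+, adjusted p = 0.92), so its count cannot check the Ogg1-/- label. The sort was clear: summed over 8 neuronal markers, WT libraries held 5043 to 5416 CPM (counts scaled to one common library total) in NeuN+ and 623.1 to 699.2 CPM in NeuN-. The 5 oligodendrocyte markers summed to 119.1 to 122.9 CPM in WT NeuN+ and 5911 to 6645 CPM in WT NeuN-. Tests used edgeR's quasi-likelihood fit over all genes, and a gene was called changed at an adjusted p under 0.05 with an absolute log2 fold change above 0.5.

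Levels are compared between genes as CPM per kilobase of annotated exon, scaled over all 24 libraries. The most abundant member by this measure was Rps3, a small-subunit protein of the mRNA entry channel. In WT NeuN+ libraries it stood at 38.1, 30.6 and 33.8 CPM per kb (34.2 ± 3.80, SD, n = 3), and in WT NeuN- libraries at 31.7, 33.5 and 37.7. The small-subunit median was 4.48 CPM per kb in NeuN+ and 5.30 in NeuN-, so Rps3 lay far above its family in both cell types. Its annotated exons contain the small nucleolar RNA gene Snord15b, which was itself counted 6515 to 12364 times per library, and whether the reads of the pair were separated is not stated.

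After Rps3, the small-subunit order in NeuN+ was led by Rps23, a protein of the decoding centre, at 13.2 ± 1.26 CPM per kb, and Rpsa, which sits on the back of the platform, at 13.1 ± 0.223. These neighbours did not differ beyond their spread. The lowest were Rps19, which is mutated in Diamond-Blackfan anaemia, at 1.36 ± 0.0414, and Rps20 at 1.52 ± 0.0741. In NeuN- nuclei Rps20 (1.49 ± 0.0864) and Rps19 (1.58 ± 0.058) again came last. Rpsa (17.2 ± 0.594) and Rps23 (15.5 ± 1.35) again came next to Rps3.

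The large subunit ran from 1.51 to 27.1 CPM per kb in NeuN+, with a median of 5.68. Its highest member was Rplp1, an acidic protein of the stalk, with 24.6, 29.8 and 27.0 in NeuN+ and 32.6, 26.6 and 23.6 in NeuN-. Next came Rpl19 (19.1 ± 2.15) and Rpl23 (17.2 ± 1.77) in NeuN+, which overlapped each other. Rpl18 (1.51 ± 0.116) and Rpl35a (1.52 ± 0.0888) stood lowest in NeuN+ and did not differ beyond their spread. In NeuN- nuclei Rpl35a (1.53 ± 0.0699) and Rpl36a (2.1 ± 0.212) stood lowest.

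**Figure D1:**
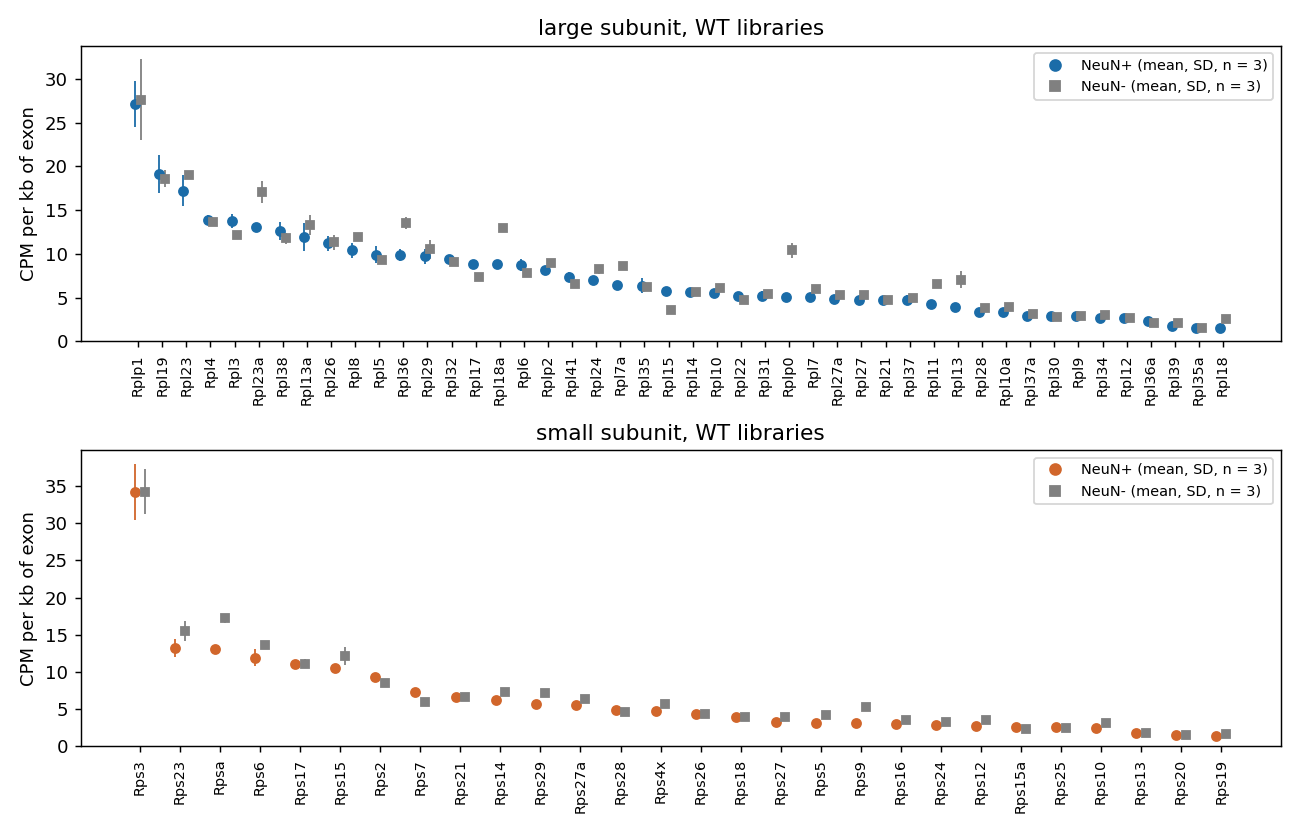
Level of the ribosomal protein genes named on the horizontal axis in WT libraries as CPM per kb of annotated exon, scaled over all 24 libraries (vertical axis), with large-subunit genes above and small-subunit genes below, ordered by their NeuN+ mean; coloured circles are NeuN+ and grey squares NeuN-, with SD bars over 3 libraries. Rps3 at 34.2 and Rplp1 at 27.1 in NeuN+ stand above the rest, while most genes lie under 10 in both cell types.

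These orders carry a limit of annotation. The exon union includes retained introns, 24 members have a small nucleolar RNA gene within annotated exons, and the exons of 18 overlap a gene on the other strand. Near-identical copies are a further limit: 316 symbols with the ending -ps are copies of 61 of the members, and their counts came to 7.66% of the members' counts. The share was high for Rpl15 (71.0% of its own count), Rps13 (51.8%) and Rps2 (44.1%), and reads of such pairs cannot be assigned with certainty. Members without a copy had a median of 7.02 CPM per kb (15 genes), those with 1 to 9 copies 4.86 (51 genes) and those with 10 or more 7.65 (10 genes).

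The first comparison asked whether neuronal and non-neuronal nuclei of WT mice held these transcripts in different amounts. Most members were at a similar level: Rplp0 alone passed the call, here set at an absolute log2 fold change above 1, although 42.9% of 33523 genes did. At an adjusted p under 0.05 and any fold, 23 members were lower and 4 higher in NeuN+, together 27 of 76, against 72.4% of all genes. The median member differed by -0.13 on the log2 scale, and the median of all genes by -0.01. Cell type and sequencing lane cannot be told apart in this comparison.

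Rplp0 carries the stalk that P1 and P2 proteins attach to. It stood at 7.88, 8.43 and 8.79 CPM in NeuN+ and 18.9, 16.6 and 16.3 CPM in NeuN-, scaled over all libraries, a log2 fold change of -1.05 ± 0.12 SE (adjusted p = 5.07e-08). The groups did not overlap. The other 3 stalk members did not pass the threshold, with Rplp1 at -0.02 (adjusted p = 0.89), Rplp2 at -0.13 (adjusted p = 0.24) and Rpl12 at -0.01 (adjusted p = 0.90). Without WT NeuN- replicate 1 the Rplp0 value was -0.98, just under the fold limit.

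Also lower in NeuN+ were Rpl13 (-0.83 ± 0.12, adjusted p = 3.1e-06) and Rpl18 (-0.78 ± 0.096, adjusted p = 1.69e-07) of the large subunit. In the small subunit these were Rps9 (-0.78 ± 0.10, adjusted p = 6.79e-07), which helps form the mRNA entry channel, and Rps12 (-0.44 ± 0.084, adjusted p = 7.09e-05). Rpl11, a partner of 5S ribosomal RNA, was lower by 0.63 (-0.63 ± 0.082, adjusted p = 4.22e-07), while its partner Rpl5 was not different (0.10 ± 0.081, adjusted p = 0.28). Rpl11 stood at 10.6, 12.6 and 11.3 CPM in NeuN+ and at 17.2, 18.0 and 18.1 CPM in NeuN-.

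The 4 members higher in NeuN+ were Rpl15, Rps7, Rpl17 and Rps15a. Rpl15, a core protein of the large subunit, stood at 13.5, 15.7 and 13.4 CPM in NeuN+ against 8.60, 9.42 and 8.49 CPM in NeuN- (0.68 ± 0.098, adjusted p = 1.54e-06). Its groups did not overlap, and its copies' counts are large beside its own. Rps7 (0.29 ± 0.088, adjusted p = 0.00602), Rpl17 (0.26 ± 0.094, adjusted p = 0.0158) and Rps15a (0.15 ± 0.063, adjusted p = 0.0341) were higher by less. Scaling by library totals alone moved the median member to -0.36 and the count called to 4, and moved the median of all genes from -0.01 to -0.25, so the family kept nearly the same distance from the median gene while its place relative to 0 depends on the scaling. Of the ends of the range, Rplp0 stayed lower and Rpl15 higher in every setting run.

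**Figure D2:**
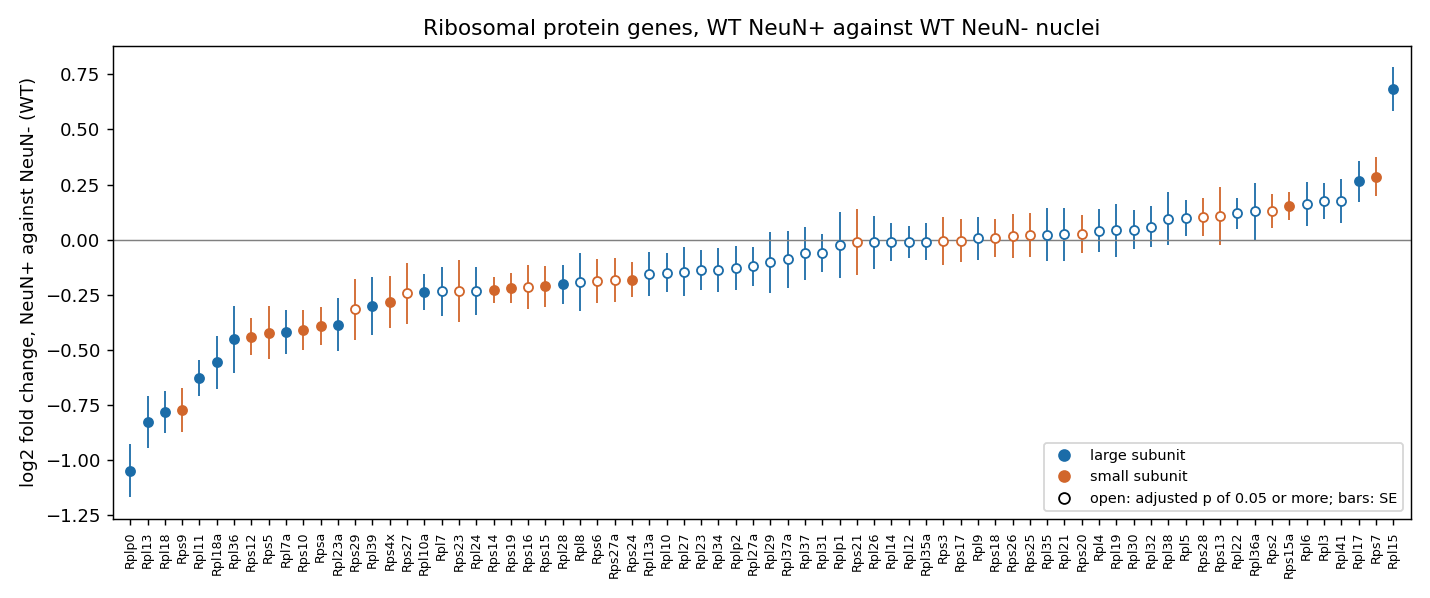
Log2 fold change of the ribosomal protein genes named on the horizontal axis in WT NeuN+ against WT NeuN- nuclei (points, with SE bars), ordered by value; blue is large and orange small subunit, and open points had an adjusted p of 0.05 or more. Rplp0 at -1.05 and Rpl15 at 0.68 are the ends of the range.

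The second set of comparisons asked what loss of each glycosylase did to these transcripts in neurons. In Ogg1-/- NeuN+ nuclei 75 of 76 members had a lower estimate than WT, with a median log2 fold change of -0.34, where 47.8% of all 30132 genes tested were lower and their median was 0.01. 3 members were called, all lower: Rpl8, Rps6 and Rps26 (3 of 76, against 0.574% of all genes). 10 members had an adjusted p under 0.05 at any fold, all lower, against 1.1% of all genes. In 62 members all 3 Ogg1-/- libraries lay below all 3 WT libraries, a position held by 10.2% of all genes.

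Rpl8 binds the 28S RNA beside the site of peptide bond formation. It stood at 12.5, 14.3 and 12.5 CPM in WT NeuN+ and at 9.49, 9.23 and 7.61 CPM in Ogg1-/- NeuN+, a log2 fold change of -0.58 ± 0.12 SE (adjusted p = 0.0397). Rps6, the substrate of the S6 kinases, stood at 15.5, 19.1 and 17.7 CPM in WT and at 12.7, 11.1 and 12.0 CPM in Ogg1-/- (-0.55 ± 0.11, adjusted p = 0.031). In both, each knockout library lay below each WT library.

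Rps26 sits at the mRNA exit channel. It stood at 6.66, 5.98 and 5.77 CPM in WT and at 4.56, 4.30 and 3.98 CPM in Ogg1-/- (-0.52 ± 0.11, adjusted p = 0.0294). Again the groups did not overlap. Rplp1 had the lowest estimate of the family, -0.60 ± 0.15, with 11.2, 13.8 and 12.5 CPM in WT and 9.55, 7.66 and 7.59 CPM in Ogg1-/-, but its adjusted p was 0.07.

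The other 7 members with an adjusted p under 0.05 came from several places on the ribosome. Rps27a, made as a fusion with ubiquitin, was lower by 0.50 (-0.50 ± 0.10, adjusted p = 0.0322), from 9.86, 9.91 and 10.6 CPM in WT to 7.80, 7.19 and 6.52 CPM. Rpl28 (-0.47 ± 0.095, adjusted p = 0.0302) and Rpl3, which reaches towards the peptidyl transferase centre (-0.46 ± 0.093, adjusted p = 0.0302), were close behind. Rpl4, which lines the exit tunnel, was at -0.45 ± 0.10 (adjusted p = 0.0439). The stalk protein Rplp2 (-0.44 ± 0.098, adjusted p = 0.0447), Rps7 (-0.41 ± 0.092, adjusted p = 0.048) and Rpl27a (-0.36 ± 0.08, adjusted p = 0.0432) completed the 10.

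By place on the large subunit, the medians in Ogg1-/- NeuN+ were -0.43 over the 4 stalk members, -0.40 over 8 members of the exit tunnel and its rim, and -0.38 over 7 members of the catalytic centre, L1 stalk and intersubunit face. The 25 remaining large-subunit members had a median of -0.35. Of the 5S RNA partners, Rpl5 was at -0.28 (adjusted p = 0.075) and Rpl11 at -0.08 (adjusted p = 0.82), and the difference between them was not tested. On the small subunit, the medians were -0.24 over 14 members of the head, -0.29 over 9 of the body, mRNA entry and decoding sites, and -0.32 over 7 of the platform and back. All large-subunit members and 29 of 30 small-subunit members were lower.

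The members that stayed closest to WT in Ogg1-/- NeuN+ nuclei were Rps3 (0.01 ± 0.11, adjusted p = 0.98), Rpl11 (-0.08 ± 0.098, adjusted p = 0.82), Rps19 (-0.08 ± 0.079, adjusted p = 0.75) and Rps12 (-0.08 ± 0.095, adjusted p = 0.79). Rps3 stood at 157, 127 and 141 CPM in WT and at 167, 130 and 130 CPM in Ogg1-/-, and the groups overlapped. Rps19 stood at 5.66, 6.07 and 5.86 CPM in WT and at 5.37, 5.76 and 5.50 CPM in Ogg1-/-. Across the 12 NeuN+ libraries, the level of Rps3 had a Pearson r of -0.046 with the mean of the other members, where the median member had 0.903 and Rps7 0.989. These r values are descriptions across libraries that also differ in genotype.

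**Figure D3:**
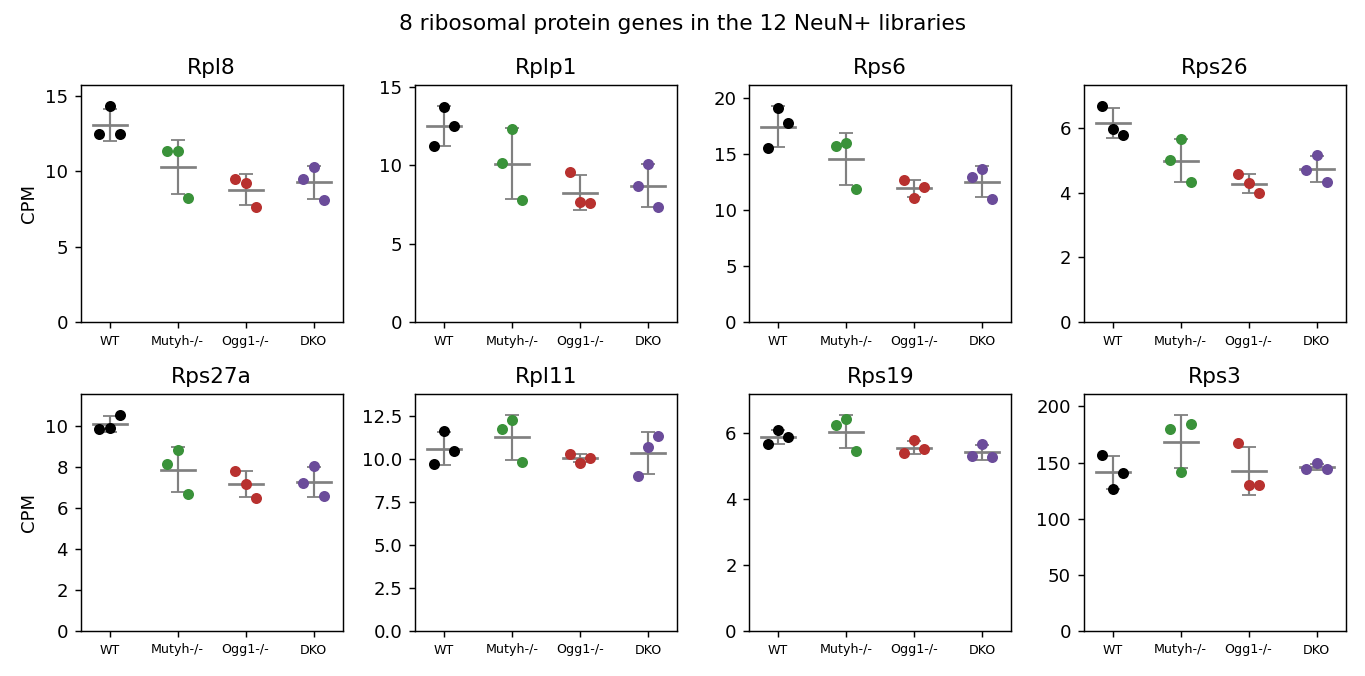
CPM (vertical axis, from 0) of 8 ribosomal protein genes in the 12 NeuN+ libraries by labelled genotype, with points for libraries and grey bars for mean and SD (n = 3). Rpl8, Rplp1, Rps6, Rps26 and Rps27a lie lower in every Ogg1-/- library than in every WT library, and in Rpl11, Rps19 and Rps3 the Ogg1-/- and WT libraries overlap.

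The Ogg1-/- calls depended on which libraries were included. No member was called without WT replicate 2 or 3 or without Ogg1-/- replicate 2 or 3, 2 (Rps26 and Rps27a) were called without Ogg1-/- replicate 1, and 3 (Rpl13a, Rpl3 and Rps6) without WT replicate 1. The median stayed between -0.39 and -0.30 throughout, and DESeq2 called 5 members (0.790% of all genes). With the counts of -ps copies added to their parents 2 members were called, Rpl8 and Rps6, and the Rps26 call was lost. At an unadjusted p under 0.05 there were 56 members, all lower, against 7.33% of all genes lower at that p.

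In DKO NeuN+ nuclei 75 of 76 members were lower, with a median of -0.28 against 0.00 over all genes (50.1% lower). None was called with edgeR, against 0.302% of all genes, and none had an adjusted p under 0.05, against 0.494%. At an unadjusted p under 0.05 there were 51, all lower, against 7.51% of all genes lower at that p. DESeq2 called 1 member and 0.574% of all genes. In 48 members the DKO libraries all lay below the WT libraries, against 9.49% of all genes. The lowest estimates were again Rplp1 (-0.52 ± 0.15, adjusted p = 0.14) and Rpl8 (-0.50 ± 0.12, adjusted p = 0.096), and the highest Rps3 (0.05 ± 0.11, adjusted p = 0.89). Rps6 stood at 12.9, 13.7 and 11 CPM in DKO, below all WT libraries (-0.48 ± 0.11, adjusted p = 0.085). Rps27a stood at 7.25, 8.05 and 6.59 CPM (-0.47 ± 0.10, adjusted p = 0.062).

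In Mutyh-/- NeuN+ nuclei the estimates were smaller. 66 of 76 members were lower, with a median of -0.18 against -0.01 over all genes (51.9% lower). None was called with edgeR (0.428% of all genes were) or with DESeq2, and none had an adjusted p under 0.05 (0.641% of all genes). At an unadjusted p under 0.05 22 were lower and 1 higher, against 9.21% of all genes lower at that p. In 26 members the groups did not overlap, all with Mutyh-/- below WT, against 10.8% of all genes. Without Mutyh-/- replicate 3 the median was -0.09.

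At the ends of this comparison were Rps27a (-0.36 ± 0.10, adjusted p = 0.10), with 8.14, 8.85 and 6.69 CPM in Mutyh-/-, and Rps3 (0.26 ± 0.11, adjusted p = 0.22), with 180, 142 and 185 CPM. Rpl5 (0.00 ± 0.07, adjusted p = 0.99) and Rpsa (0.03 ± 0.084, adjusted p = 0.89) were level with WT. The large-subunit median was -0.19 and the small-subunit median -0.16.

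**Figure D4:**
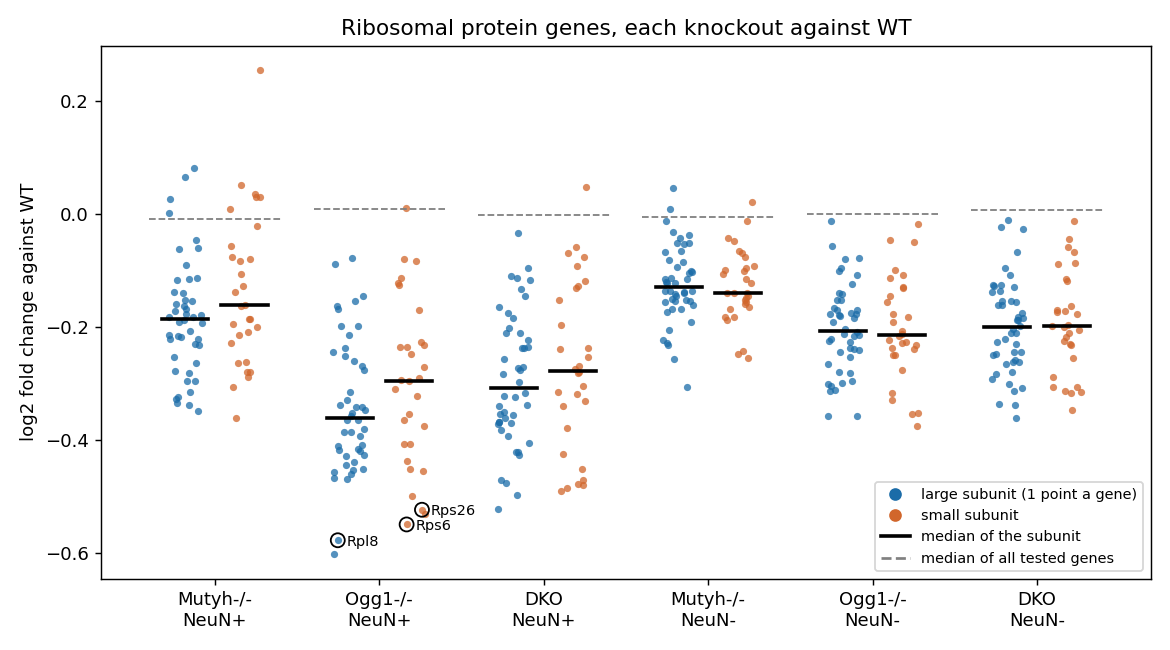
Log2 fold change against WT (vertical axis) of 46 large-subunit (blue) and 30 small-subunit (orange) genes in each knockout and cell type, 1 point a gene, with black bars for subunit medians and dashed lines for the median of all genes tested. Circled genes passed the call; all subunit medians lie between -0.36 and -0.13, and the all-gene medians lie near 0.

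In NeuN- nuclei the same question gave smaller values and no calls. The median member was at -0.14 in Mutyh-/- (73 of 76 lower), -0.21 in Ogg1-/- (76 of 76) and -0.20 in DKO (76 of 76), and the all-gene medians were -0.01, 0.00 and 0.01, with 51.2%, 49.8% and 48.5% of genes lower. No member was called in any of the 3 with edgeR or DESeq2, against 0.273%, 0.229% and 0.116% of 31863 genes. None had an adjusted p under 0.05 at any fold with edgeR, against 0.32%, 0.342% and 0.179%. At an unadjusted p under 0.05 there were 13, 36 and 38 members, all lower, against 6.9%, 6.08% and 6.31% of all genes lower at that p. Knockout libraries lay wholly below WT in 23, 55 and 41 members, against 10.2%, 10.7% and 9.15% of all genes. Without Mutyh-/- replicate 3 the Mutyh-/- median was -0.06.

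The subunits had like medians in NeuN-: -0.13 for large and -0.14 for small in Mutyh-/-, -0.21 for each in Ogg1-/-, and -0.20 for each in DKO. Rpl3 came nearest to the threshold, at -0.31 ± 0.061 in Ogg1-/- (adjusted p = 0.059), with 43.2, 42.3 and 40.4 CPM in WT and 35.3, 31.7 and 34.4 CPM in Ogg1-/-. The lowest estimates were Rpl38, known for its part in translating Hox mRNAs, in Mutyh-/- (-0.30 ± 0.11, adjusted p = 0.26), Rps4x in Ogg1-/- (-0.38 ± 0.11, adjusted p = 0.21) and Rpl8 in DKO (-0.36 ± 0.12, adjusted p = 0.29). The highest were Rpl34 in Mutyh-/- (0.05 ± 0.11, adjusted p = 0.89), Rpl23 in Ogg1-/- (-0.01 ± 0.067, adjusted p = 0.97) and Rpl30 in DKO (-0.01 ± 0.091, adjusted p = 0.98).

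Genes often used as reference transcripts were among the members that lay below WT in some comparisons. Rplp0 in NeuN- stood at 20.6, 18.3 and 17.7 CPM in WT and at 15.3, 14.2 and 14.7 CPM in Ogg1-/- (-0.36 ± 0.097, adjusted p = 0.18). Rpl13a in NeuN+ was at -0.43 ± 0.11 in Ogg1-/- (adjusted p = 0.076), and Rps18 at -0.25 ± 0.088 (adjusted p = 0.24). None of these passed the threshold. Some of the members with a known paralogue are given for Ogg1-/- NeuN+. Rpl22 was at -0.20 ± 0.068 (adjusted p = 0.22) and Rpl39 at -0.20 ± 0.14 (adjusted p = 0.61). Rpl10, which completes the tRNA-binding face, was at -0.38 ± 0.089 (adjusted p = 0.055). Rpl3, which has the paralogue Rpl3l, was at -0.46 and had an adjusted p under 0.05, as given above. The small intersubunit peptide Rpl41 was at -0.41 ± 0.11 (adjusted p = 0.085).

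The libraries moved as wholes. Taking for each library the median over members of the log2 difference from the WT mean, the NeuN+ values were -0.06, 0.04 and 0.02 in WT, -0.10, -0.08 and -0.37 in Mutyh-/-, -0.25, -0.34 and -0.42 in Ogg1-/-, and -0.30, -0.15 and -0.46 in DKO. The NeuN- values were 0.03, 0.00 and -0.04 in WT, -0.09, -0.04 and -0.28 in Mutyh-/-, -0.15, -0.19 and -0.28 in Ogg1-/-, and -0.18, -0.10 and -0.33 in DKO. Every knockout library lay below every WT library in NeuN+, and in NeuN- all but Mutyh-/- replicate 2 did, which lay just above the lowest WT library. Replicate 3 was the lowest of its group in each knockout and both cell types. The members' share of all counts gave a like picture, at 0.0954% to 0.101% in WT NeuN+ and 0.0763% to 0.0947% in the knockouts, and at 0.123% to 0.127% in WT NeuN- and 0.104% to 0.118% in the knockouts.

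**Figure D5:**
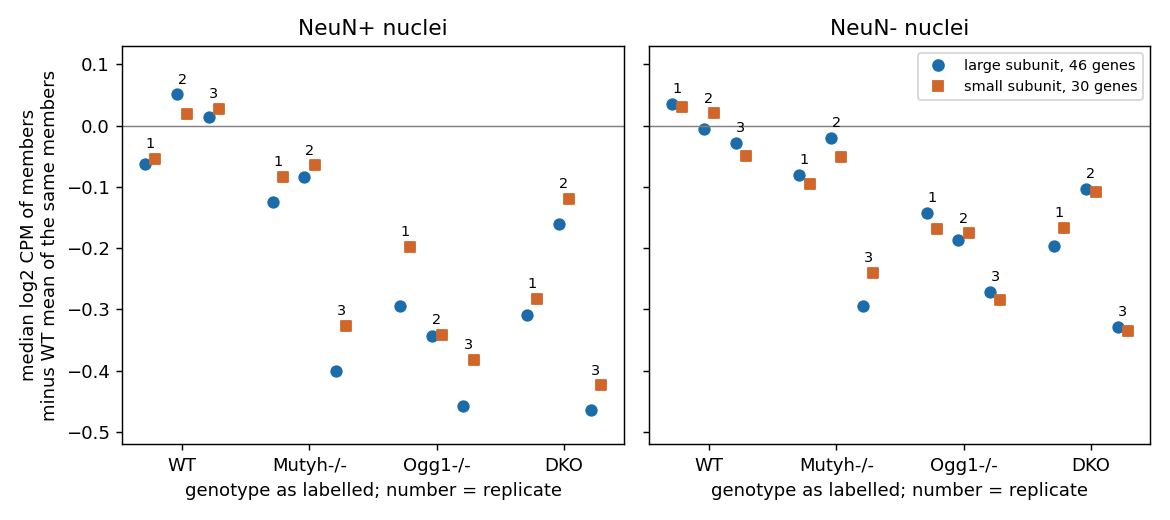
Median over large-subunit (circles) and small-subunit (squares) genes of log2 CPM minus the WT mean of the same gene (vertical axis), 1 pair of points a library, with the replicate number above. In NeuN+ every knockout library lies below the WT libraries, and replicate 3 is the lowest library of each knockout group in both cell types.

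Between the knockouts no member was called in NeuN+ or NeuN- with edgeR or DESeq2. In NeuN+ the median was 0.04 for DKO against Ogg1-/- (0.216% of all genes called), -0.12 for DKO against Mutyh-/- (0.139%) and -0.16 for Ogg1-/- against Mutyh-/- (0.485%). At an unadjusted p under 0.05 the members numbered 0, 4 and 17, all lower, against 2.79%, 3.45% and 6.09% of all genes. In NeuN- the medians were 0.01, -0.08 and -0.07 (0.132%, 0.122% and 0.521% of all genes called), with 0, 1 and 2 members at an unadjusted p under 0.05, all lower, against 2.18%, 5.21% and 5.56% of all genes. The 3 knockouts share the WT libraries, and so their values against WT are not independent of each other.

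Whether a knockout's effect differed between NeuN+ and NeuN- was tested as an interaction in all 24 libraries. No member passed an adjusted p of 0.05 with edgeR or DESeq2 for Mutyh-/- (0.0209% of 33523 genes did), Ogg1-/- (0.0537%) or DKO (0.0567%). At an unadjusted p under 0.05 there were 1, 0 and 1, all lower, against 4.64%, 3.04% and 4.76% of all genes. Rpl8 in Ogg1-/- had the farthest value from 0 in that genotype, -0.36 ± 0.19 lower in NeuN+ (adjusted p = 0.74). The smaller values in NeuN- are therefore not shown to differ from those in NeuN+.

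Rpl32, a large-subunit protein, lies 2.47 Mb from Ogg1 (chr6:115805505-115808747, GRCm38). It was at -0.15 ± 0.097 in Ogg1-/- NeuN+ (adjusted p = 0.57) and -0.14 ± 0.097 in DKO NeuN+ (adjusted p = 0.56). Both estimates lay within the range of the other members.

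Genes around the family were counted in the same fits. Among ribosomal proteins whose symbols the selection leaves out, Fau was at -0.63 ± 0.15 in Ogg1-/- NeuN+ (adjusted p = 0.055), Rps3a1 at -0.40 ± 0.11 (adjusted p = 0.097) and the signalling scaffold Rack1 at -0.11 ± 0.10 (adjusted p = 0.72). Of 14 other mRNAs known for a pyrimidine start, 13 were lower there, with a median of -0.19, 2 passed an adjusted p of 0.05 and 1 was called, the elongation factor Eef1a1 (-0.61 ± 0.12, adjusted p = 0.0286). Of 26 genes of ribosome assembly and polymerase I, 20 were lower, with a median of -0.06, and 2 were called: nucleolin, Ncl (-0.53 ± 0.067, adjusted p = 0.000627), and Nip7 (-0.52 ± 0.10, adjusted p = 0.0234). Of the 8 paralogues tested, 7 were lower (median -0.17), and none passed the test. Of 6 host genes of small nucleolar RNAs, 3 were lower (median 0.03), and none passed either. The 77 genes of the mitochondrial ribosome had a median of -0.09, with 59 lower, of which 1 passed an adjusted p of 0.05 and none was called.

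In Mutyh-/- and DKO NeuN+ nuclei the mitochondrial ribosome genes had medians of -0.05 and -0.08, and in NeuN- nuclei the 3 medians were -0.02, -0.01 and -0.04. Their share of counts in NeuN+ was 0.0768% to 0.0821% in WT and 0.0756% to 0.08% in the knockouts, so the ranges overlapped, unlike those of the cytosolic family.

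The genes whose levels ran most like the members' mean, over 12 NeuN+ and 12 NeuN- libraries taken apart, were Eef1a1 (mean Pearson r 0.983), Cfl1 (0.967), Tuba1b (0.967), Atp5b (0.966) and Gm49450 (0.966). Eef1a1 delivers aminoacyl-tRNA to the ribosome, Cfl1 severs actin filaments, Tuba1b is an alpha-tubulin and Atp5b a subunit of the mitochondrial ATP synthase. Cfl1 (-0.61 ± 0.12, adjusted p = 0.0234) and Tuba1b (-0.56 ± 0.11, adjusted p = 0.0234) were called lower in Ogg1-/- NeuN+ nuclei. They were also called in DKO NeuN+ nuclei, at -0.61 ± 0.12 (adjusted p = 0.0362) and -0.52 ± 0.11 (adjusted p = 0.0444). Because these genes were picked for following the members over the same libraries, their calls are not independent of the family's values.

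Several other measures moved with the family in some comparisons, and their part in the result was not tested. The members are short genes, with a median span of 3266 bases against 24949 bases over protein-coding genes tested in NeuN+, and 72 of 76 span under 10 kb. The other protein-coding genes under 10 kb held 2.66% to 2.97% of counts in WT NeuN+ and 2.54% to 2.78% in the knockouts, with medians of -0.04, -0.06 and -0.04 in Mutyh-/-, Ogg1-/- and DKO. The -ps copies held 0.00744% to 0.00787% in WT NeuN+ and 0.00598% to 0.00699% in the knockouts. In NeuN- nuclei these shares did not overlap between WT and the knockouts: short genes held 4.21% to 4.34% in WT and 3.97% to 4.20% in the knockouts, and the copies 0.009% to 0.00952% and 0.00797% to 0.00878%. Protein-coding genes over 100 kb held 42.2% to 42.6% of counts in WT NeuN- and 43.1% to 44.1% in the knockouts. The nuclear long noncoding RNA Malat1 held 1.82% to 1.87% in WT NeuN-, with 1.97% to 2.01% in the Ogg1-/- libraries, 1.90% to 1.94% in the DKO libraries and 1.80% to 1.92% in the Mutyh-/- libraries. Across the 76 members, the Spearman rho between log2 fold change and gene span was 0.37, 0.35 and 0.45 in NeuN+ and 0.085, 0.20 and 0.30 in NeuN-, so the shortest members tended to have the lower NeuN+ estimates. The rho with level was between -0.19 and 0.095. Members with and without a pyrimidine run at the start had like medians in Ogg1-/- NeuN+, -0.36 over 13 and -0.34 over 43.

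Markers of other cell types were set beside these values. In NeuN+ nuclei 6 of 6 astrocyte markers had lower estimates in each knockout, with summed levels of 293.7 to 358.3 CPM in WT and 270.9 to 340 CPM in the knockouts, and none passed the test. The 8 neuronal markers summed to 5043 to 5416 CPM in WT NeuN+ and to 5152 to 5860 CPM in the knockouts, and Rbfox3 alone stood at 1321 to 1366 CPM and at 1362 to 1671 CPM. The 5 oligodendrocyte markers summed to 119.1 to 122.9 CPM in WT NeuN+ and to 117.4 to 139.5 CPM in the knockouts. In NeuN- nuclei 8, 7 and 8 of 8 neuronal markers had lower estimates in Mutyh-/-, Ogg1-/- and DKO, with summed levels of 623.1 to 699.2 CPM in WT and 565.3 to 653.8 CPM in the knockouts. The 6 astrocyte markers all had higher estimates in Ogg1-/- and DKO NeuN-, where Aldh1l1 was called in Ogg1-/- (0.52 ± 0.097, adjusted p = 0.0483). The 5 choroid plexus markers were uneven in NeuN-, at 33.4 to 60 CPM in WT and 18 to 22.2 CPM in Mutyh-/-. They ran from 9.44 to 94.8 CPM in the Ogg1-/- libraries and from 7.16 to 212 CPM in the DKO libraries, where replicate 3, the lowest library for the ribosomal genes, was the highest, and none passed the test. Of all the cell type markers, C1qa of microglia and Cldn5 of endothelium were at 0 counts in at least 1 NeuN+ library, and none was at 0 in NeuN-. Summed oligodendrocyte markers ran from 5911 to 6645 CPM in WT NeuN- and from 4501 to 6765 CPM in the knockouts, and astrocyte markers from 2789 to 3314 CPM and from 2853 to 4112 CPM. Fewer nuclei of a type and less RNA per nucleus cannot be told apart in pooled libraries.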

How the data were processed

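Nuclear RNA libraries were made with a stranded total RNA kit from nuclei sorted on NeuN, the protein of Rbfox3. The deposited values are raw counts per gene, made by the authors with HISAT2 2.1.0, SAMtools 1.10 and featureCounts on GRCm38 (mm10). Strand, multiple mapping and overlap settings of the counting are not given in the sources used here. The methods describe pools of 3 animals for RNA and of 5 for sorting, and NeuN+ and NeuN- libraries ran on different lanes.

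Groups came from the labels. Counts were fitted with edgeR 4.0.16 (R 4.3.3) by the quasi-likelihood test, with TMM factors and filterByExpr, over the 12 libraries of a cell type, or over all 24 for cell types and interactions. Adjusted p is Benjamini-Hochberg over all genes tested, and all 76 members passed the filter in each fit. Genotype calls asked for a log2 fold change beyond 0.5 in size besides an adjusted p under 0.05, and cell type calls for one beyond 1. CPM are TMM-scaled within a cell type unless stated, and ± after a fold change is the SE. Alternatives were RLE factors, no TMM, other filters, DESeq2 1.42.0, a replicate block, only the groups compared, copies added to their parents, and leaving out each library. The fit was tested on simulated data in which genes varied independently. There, changes were set only in well-counted genes and were larger than most members' shifts. Low counts and small shared shifts were therefore not covered. Named members were those called, those at either end of each comparison with WT, of the levels and of the cell type difference, those within 10 Mb of a targeted gene, and a list of well-known members. Members and lists were chosen with earlier results of these data known. Promoters came from RefSeq (GRCm38.p6). Some single genes are not reported here by name, and the plots that label genes leave them out, while all counts and medians include them.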

Additional observations from a re-analysis of the deposited data

How the results depend on the processing

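No median against WT or between WT cell types changed sign under any alternative setting. The same held for the single genes followed. These were the 10 with an adjusted p under 0.05 in Ogg1-/- NeuN+, and Rplp0 and Rpl15 between WT cell types. Counts of members have no sign, so that check does not cover them. Some other members did change sign. The number lower, 66 as reported in Mutyh-/- NeuN+, ranged from 59 to 72, and 51 in WT cell types ranged from 46 to 73. Of the 744 alternative values computed, 676 stayed near the reported one. That meant a count equal or close to it, a median within the spread between libraries, or a gene that kept its call status. The count of members called in Ogg1-/- NeuN+, 3 as reported, was 5 with no filter on low counts, 5 with DESeq2, 6 with only the groups compared and 2 with -ps copies added, where 308, 238, 305 and 172 of all genes were called against 173 as reported, and it ranged from 0 to 3 when 1 library was left out. The count in DKO NeuN+, 0 as reported, was 2 without TMM, 1 with no filter on low counts and 1 with DESeq2. There 121, 252 and 173 of all genes were called, in that order, against 91 as reported. With 1 library left out the DKO NeuN+ count of members ranged from 0 to 1. In WT cell types, no TMM gave 4 calls and a median of -0.36, and leaving out 1 library gave 0 to 1 calls and medians of -0.15 to -0.10. With a replicate block 6 members were called in Ogg1-/- NeuN+ and 1 in DKO NeuN+. The number of all genes called rose there too, from 173 to 235 in Ogg1-/- and from 91 to 171 in DKO. The replicate block changed no other count of members called. Same-numbered libraries deviated together, with a correlation over 0.1, in 4 of 18 pairs of genotypes in NeuN+, 5 of 18 in NeuN- and 6 of 12 pairs of cell types within a genotype. Among pairs with different numbers this was so in 5 of 36, 6 of 36 and 1 of 24, in that order. The labels do not say that the numbers pair genotypes, and they were not taken to do so in the main fits. Between the sorts the numbers go together in part: same-numbered pairs had a mean correlation of 0.11, and 22 of 24 libraries were closest to their own number in the other sort. This is a hint from the data and not from the labels. Other pairs had a mean of -0.055, which is no separate contrast, because deviations from a group mean cancel out within the group. In WT cell types the replicate block gave 1 call and 40 members at an adjusted p under 0.05. Members with an adjusted p under 0.05 at any fold in Ogg1-/- NeuN+, 10 as reported, numbered 0 to 4 with 1 library left out and 9 to 40 under the other settings, where the replicate block gave 26 and DESeq2 38. In DKO NeuN+ that number, 0 as reported, reached 21 with DESeq2. In NeuN- it reached 8 for Ogg1-/-, 3 for DKO and 1 for Mutyh-/-, and in WT cell types it ranged from 21 to 52 around 27. How many of all genes passed that limit was not counted under the alternative settings, so these numbers of members have no share beside them. Medians with 1 library left out ranged, for NeuN+, from -0.39 to -0.30 (Ogg1-/-), -0.38 to -0.23 (DKO) and -0.23 to -0.09 (Mutyh-/-). For NeuN- they ranged from -0.23 to -0.17, -0.25 to -0.14 and -0.18 to -0.06 in that order. The cause of these shifts was not tested. Leaving out a library leaves fewer residual degrees of freedom. With 111 to 14794 counts a member and 3 libraries a group, members with few counts carry more counting error than the rest.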
